A study of Homo sapiens with 32 samples.

Results

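A set of 375 m6A regions was present in both SETD2-knockout clones of the 786-O kidney cancer line and absent both from the parental line and from knockout cells in which SETD2 had been put back. The regions were chosen by their peak calls: overlapping peaks of the 8 786-O lists on chromosomes 1 to 22, X and Y were merged, and a merged region was kept if a peak of all 4 SETD2KO libraries overlapped it and no peak of the 4 SETD2-expressing libraries did. Of 78921 merged regions, 375 met this rule, or 0.475%. Leaving 1 of the 8 libraries out of the rule gave 450 to 880 regions, over 1.5 times as many in 6 of the 8 cases: 880 without SETD2KO-2 replicate 2, 598 and 589 without SETD2KO-1 replicate 1 or 2, 584 without SETD2KO-2 replicate 1, 568 without SETD2KO-1R replicate 1 and 566 without WT replicate 2. The pattern of calls across the 786-O libraries is therefore the selection itself and is described without a test. What the rule did not use is where the regions lay, whether they lay together, and whether the second cell line had peaks at the same places. How strongly the regions were ranked rests on the same SETD2KO peaks that chose them and is given as a description.

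The 786-O line derives from a clear cell renal cell carcinoma (ccRCC), and RPTEC is a line of renal proximal tubule epithelial cells immortalized with hTERT. In each there were 4 untreated lines: WT, the parent with intact SETD2; SETD2KO-1 and SETD2KO-2, clones in which SETD2 was inactivated by CRISPR/CAS9; and SETD2KO-1R, a clone of SETD2KO-1 that re-expresses full-length, tagged SETD2. Each line gave 2 IP libraries of methylated RNA immunoprecipitation sequencing (MeRIP-seq), so 16 peak lists in all. Below, SETD2-expressing stands for WT together with SETD2KO-1R, and SETD2KO for SETD2KO-1 together with SETD2KO-2. Each SETD2KO line and the rescued line is 1 clone, the 2 libraries of a line are not stated to come from separate cultures, and the differences below are between these lines. The 786-O SETD2KO lists held 28934 to 39670 peaks and the SETD2-expressing lists 25710 to 36401, so the 2 ranges overlapped. Read counts are not part of the lists. The study's methods state a minimum number of reads per sample, but the depth of each library and behind a call is unknown. A peak needs enough RNA as well as methylation of it, and more RNA and more methylation of the same RNA cannot be told apart from a peak list alone, nor can fewer cells of a kind and less RNA per cell. SETD2 itself, the inactivated gene, held 8 and 10 peaks in 786-O WT, 5 and 10 in SETD2KO-1, 5 and 4 in SETD2KO-2 and 7 and 9 in SETD2KO-1R; a peak count on the transcript does not report on the protein. Renal and epithelial markers (PAX8, PAX2, CDH6, KRT8 and KRT18) had a peak in 8 of 8 libraries of both cell lines, while KRT19 had one in 2 of 8 in 786-O and 8 of 8 in RPTEC and EPCAM in 0 and 2. The proximal tubule markers were mixed: GGT1 had a peak in 8 of 8 libraries of both, ANPEP in 2 in 786-O and 8 in RPTEC, CUBN in 1 and 0, and LRP2, AQP1, HNF4A and SLC34A1 in 0. Of the ccRCC markers, VIM had a peak in 8 libraries of 786-O and 6 of RPTEC, and CA9 in 0 of both.

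N6-methyladenosine (m6A) is the most common internal base modification of mRNA. It is written while RNA is being transcribed by a complex of METTL3 and METTL14, is read by YTH-domain proteins among others, and affects RNA splicing, export, translation and decay. SETD2 is the methyltransferase that places H3K36me3 on the bodies of transcribed genes. METTL14 can bind H3K36me3, which is why loss of the histone mark has been studied for its effect on where m6A falls. SETD2 is among the genes most often inactivated in ccRCC.

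For 3 members all summits fell within a narrow window just ahead of an annotated start site, and their sequence is shown for that reason. They are the regions at NUFIP2, which encodes an RNA-binding partner of FMRP, at CTSL, which encodes the lysosomal protease cathepsin L, and at FHIP2A. Counting bases upstream of the RefSeq start as negative, the summits of SETD2KO-1 replicates 1 and 2 and of SETD2KO-2 replicates 1 and 2 lay at -49, -8, -23 and -7 for NUFIP2. They lay at -46, -58, -38 and -31 for CTSL and at -47, -6, -32 and -17 for FHIP2A. All 12 summits were thus upstream of the annotated start, by no more than 58 bases. The bases before the start that lie in the member, up to 250, are given from RefSeq (GRCh38.p14), 5′ to 3′ on the strand of the gene, and the capitals run from the outermost to the innermost of the 4 summits. They cover chr17:29294149-29294398 on the minus strand, chr9:87725939-87726118 on the plus strand and chr10:114821530-114821779 on the plus strand.
NUFIP2: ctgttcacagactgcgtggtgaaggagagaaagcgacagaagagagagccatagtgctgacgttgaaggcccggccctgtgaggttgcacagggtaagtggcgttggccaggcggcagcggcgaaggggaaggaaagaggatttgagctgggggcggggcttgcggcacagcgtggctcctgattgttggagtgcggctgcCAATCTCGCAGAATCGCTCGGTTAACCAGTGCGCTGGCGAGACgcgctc
CTSL: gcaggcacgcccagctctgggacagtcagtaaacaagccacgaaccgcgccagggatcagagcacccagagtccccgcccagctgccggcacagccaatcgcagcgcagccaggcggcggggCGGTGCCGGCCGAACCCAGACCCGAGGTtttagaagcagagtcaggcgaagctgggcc
FHIP2A: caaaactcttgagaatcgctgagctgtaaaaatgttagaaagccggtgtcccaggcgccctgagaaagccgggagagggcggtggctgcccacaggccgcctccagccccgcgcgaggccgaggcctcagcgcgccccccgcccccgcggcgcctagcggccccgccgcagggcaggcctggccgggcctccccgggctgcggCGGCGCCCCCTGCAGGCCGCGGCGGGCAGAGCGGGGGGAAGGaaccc
The 3 stretches had a GC content of 61.6%, 68.3% and 75.2% in this order. The letters GGACT, a common form of the m6A consensus, were looked for on both strands (AGTCC on the other). The printed CTSL stretch held them once on the strand opposite the gene (as AGTCC) and 0 times on the strand shown, and the printed NUFIP2 and FHIP2A stretches held them on neither. In all, 17 members (4.53%) overlapped a promoter window of 250 bases before to 50 after a start, against 6.80% of all 786-O regions. Those 17 members touched 22 windows, 10 of which held GGACT on either strand, and 44.2% of all 35116 windows did. The peak lists carry no strand, so the strand of the RNA under these peaks is not known.

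The leading members were among the strongest peaks of their lists. The score of a peak was used only as a percentile within its own list, where 100 is the highest. For the NUFIP2 region (chromosome 17, 29293957 to 29294399) the percentile was 98.9 and 99.4 in SETD2KO-1 and 99.3 and 98.2 in SETD2KO-2. The nearest peak of a 786-O SETD2-expressing library was 5453 bp away. In RPTEC this region was called in both WT libraries, in 1 SETD2KO library (SETD2KO-1 replicate 2) and in neither SETD2KO-1R library. For the region at RUFY1, an endosomal Rab effector (chromosome 5, 179598424 to 179598720), it was 98.9 and 98.9 in SETD2KO-1 and 91.8 and 99.5 in SETD2KO-2. Here the nearest 786-O SETD2-expressing peak was only 207 bp away. This region also overlapped the noncoding RUFY1-AS1 and LOC128966623, which cannot be told apart from RUFY1 without strand. The CTSL region (chromosome 9, 87725939 to 87726257) ranked at 96.3 and 96.1 in SETD2KO-1 and at 97.0 and 95.2 in SETD2KO-2, and no 786-O SETD2-expressing library had a peak anywhere in the CTSL gene. No RPTEC library called the CTSL region, and the gene held 1 RPTEC peak, in SETD2KO-1R replicate 1. The next members in protein-coding genes were at SF3A1, a subunit of the U2 snRNP (mean percentile 95.3), NOL8, a nucleolar protein (94.8), LPP, a focal adhesion protein (94.2), TMCC1, a protein of the endoplasmic reticulum membrane (93.8), ZNF704, a zinc finger protein (89.8), RHOC, a small GTPase (88.7), and BRD10 (87.0). The LPP region also overlapped the noncoding LOC124906316. Outside protein-coding genes, the highest mean percentiles were those of HCP5, a noncoding RNA of the MHC class I region (95.6), a chromosome 8 region 3376 bp from the pseudogene RPSAP74 (90.8), LINC00632, the noncoding host of the circular RNA CDR1-AS (90.1), LINC01781 (89.3) and the pseudogene LOC100292922 on chromosome 22 (86.6). In RPTEC, 2 of the 10 leading members in protein-coding genes had more SETD2KO than SETD2-expressing calls, 4 had fewer and 4 had equal numbers. Over all 786-O regions in protein-coding genes, 16.5% had more and 25.7% fewer. Of the 5 leading members outside protein-coding genes, 4 had more and 1 (HCP5) equal numbers, where 17.6% of all regions only in another gene and 17.4% of those in no gene had more.

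Most members were weaker. The median percentile of the members' best peaks was 36.5 and 44.9 in SETD2KO-1 and 42.6 and 47.0 in SETD2KO-2, below the middle of each list. Their mean percentile exceeded 90 for 10 members and was under 10 for 5. The members' peaks had a median length of 428 and 454 bp in SETD2KO-1 and 461 and 424 bp in SETD2KO-2, against 421, 393, 432 and 388 bp for all peaks of those lists. The distance from a member to the nearest peak of a 786-O SETD2-expressing library had a median of 12934 bp and ran from 122 to 2095967 bp. It was at most 1 kb for 60 members (16%) and over 100 kb for 86 (22.9%). The members just inside the rule were those at MYLK (122 bp from such a peak), ALOX12P2 (128 bp) and C1QTNF7 (138 bp). Just outside it, 582 regions had all 4 SETD2KO calls and 1 SETD2-expressing call; those at GALNT5, PPM1F and KIAA1671 were kept out by a WT replicate 1 peak at percentile 0.172 of its list.

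Many members lay outside protein-coding genes. Of the 375, 185 (49.3%, Wilson 95% interval 44.3 to 54.4) overlapped the body of a protein-coding gene, 70 (18.7%, 15 to 22.9) only that of another gene, and 120 (32.0%, 27.5 to 36.9) no gene. Over all 786-O regions the shares were 83.6%, 7.78% and 8.60%. The share in no gene was 19.9% without SETD2KO-2 replicate 2 in the rule, 19.1% with SETD2KO-1 as the only knockout, and 14.1% with at least 3 SETD2KO and at most 1 SETD2-expressing library, where 75.4% lay in a protein-coding gene. The 116 regions with the opposite pattern, called by every WT and SETD2KO-1R library and by none of SETD2KO, had 86.2% (78.8 to 91.3) in a protein-coding gene and 9.48% (5.38 to 16.2) in no gene, and both intervals held the share over all regions. Another 165 regions were gained by both SETD2KO clones over WT but were still called in both SETD2KO-1R libraries. Of these, 61.8% (54.2 to 68.9) lay in a protein-coding gene and 21.2% (15.7 to 28.1) in no gene. The remaining 5387 regions called in exactly 4 libraries, a set with the same number of calls, had 86.6% in a protein-coding gene and 6.11% in no gene. The intervals cover counting error over regions only, and neighbouring regions are not independent. No difference between sets was tested, since the calls that define each set were the selection.

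**Figure D1:**
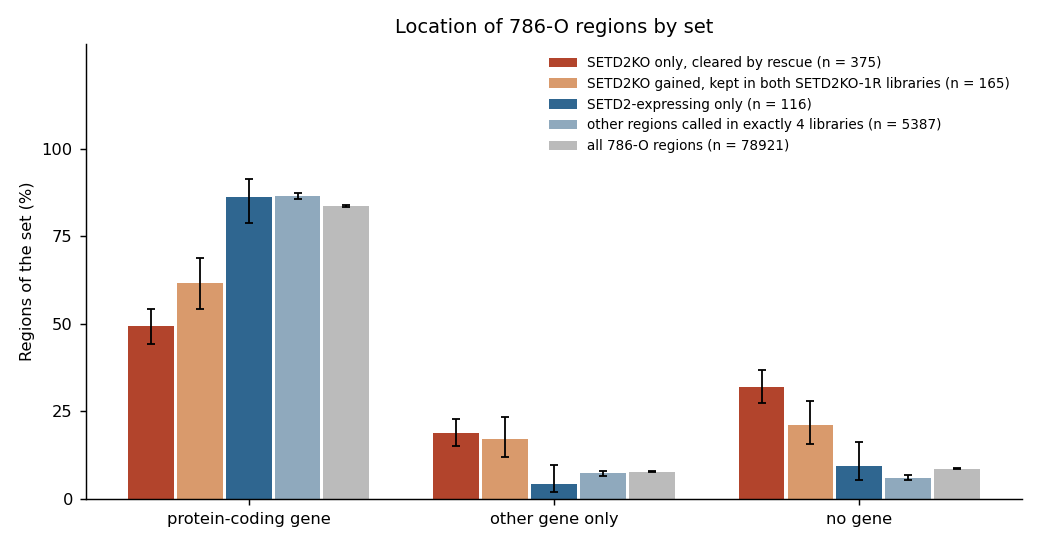
Share of regions (%, vertical axis) in a protein-coding gene, only in another gene, or in no gene, for the members and 4 other sets of 786-O regions; bars are shares and whiskers Wilson 95% intervals. The members had the lowest share in protein-coding genes of the 5 sets (49.3%) and the highest in no gene (32.0%).

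Of the 70 members that overlapped only another gene, 61 overlapped a long noncoding RNA gene and 8 a transcribed or untranscribed pseudogene. The 120 members in no gene lay at a median of 9675 bp from the nearest gene of any kind, and 61 of them (50.8%) within 10 kb. All 6791 such regions of 786-O had a median of 4586 bp, with 69.1% within 10 kb. Where the strand of that nearest gene was known, 27 members were downstream of it and 19 upstream, and over all 786-O regions in no gene 2468 were downstream and 1194 upstream. Within protein-coding genes, 13 of 185 members (7.03%) came within 500 bp of the gene's start and 6 (3.24%) within 500 bp of its end, against 7.13% and 3.27% of all 786-O regions in such genes. The strand was missing for the genes of 26 members.

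Some members lay in runs. Between neighbouring peaks of the 786-O SETD2-expressing libraries there were 12 stretches that held 3 or more members, 69 of the 375 members in all (18.4%). This grouping was made after the positions were seen. The absence of 786-O SETD2-expressing peaks inside a stretch follows from how it was drawn. Each member also brings a peak of every 786-O SETD2KO library, so the SETD2KO peak numbers are partly set by the selection. The RPTEC calls are not.

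The run with the most members was on chromosome 2, where 14 fell between 17004580 and 17422055 bp, in a gap of 1050 kb without a 786-O SETD2-expressing peak. Of these members, 13 overlapped no gene and 1 the noncoding LOC105373447, and the nearest protein-coding genes were CYRIA and RAD51AP2. The gap held 34 and 31 peaks of SETD2KO-1 and 36 and 30 of SETD2KO-2. RPTEC had peaks at the same places: 11 and 12 of the 14 members were called in its SETD2KO-1 libraries and 11 and 7 in its SETD2KO-2 libraries. Its WT libraries called 1 and 1. Unlike in 786-O, the RPTEC rescue libraries also had them, with 11 and 9 of the 14 members called in SETD2KO-1R, within the range of the SETD2KO libraries.

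A second run was on chromosome 22, between 16154324 and 16255157 bp near the centromere, with 8 members, 7 of them in no gene and 1 in LOC100292922. The 4 SETD2KO libraries had 15, 19, 15 and 22 peaks in this gap of 1250 kb. In RPTEC, SETD2KO-1 called 7 and 8 of the 8 members and SETD2KO-2 called 6 and 1, WT called 0 and 0, and SETD2KO-1R called 1 and 0. SETD2KO-2 replicate 2, with 1 of 8, did not stand apart from the rescue. This part of chromosome 22 is known for duplicated sequence, and how reads that match several places were treated is not given in the sources used here.

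RPTEC called at least 1 member in 8 of the 12 stretches and none in the other 4. On chromosome 6, 10 members between 19319080 and 19699358 bp, 8 of them in no gene, lay upstream of ID4, an inhibitor of helix-loop-helix transcription factors. The gap of 1360 kb held 24 and 21 peaks of SETD2KO-1 and 19 and 25 of SETD2KO-2. On chromosome 3, 9 members between 1030222 and 1390940 bp covered the neural cell adhesion gene CNTN6 (5 members) and the space upstream of it (4 members), with 17, 20, 24 and 27 SETD2KO peaks, and the next 786-O SETD2-expressing peak was 1740 kb further on. On chromosome 2, 5 members between 208574307 and 208815030 bp lay in the noncoding LOC101927960. On the X chromosome, 5 members between 46100368 and 46245726 bp lay in no gene. In none of these 4 runs was any member called in any of the 8 RPTEC libraries. The remaining stretches held 3 members each. On chromosome 8 (89239545 to 89382535) the RPTEC SETD2KO libraries called 2, 1, 3 and 3 of them and all 4 SETD2-expressing libraries 0. On the X chromosome (115083331 to 115544232) these were 1, 1, 2 and 3 against 0 and 0 in WT and 0 and 1 in SETD2KO-1R. At PAPPA on chromosome 9 they were 1, 0, 1 and 1 against 0, and on chromosome 3 (177669636 to 177911606) 0, 0, 2 and 0 against 0. The groups overlapped at PDLIM5 on chromosome 4, with 2, 2, 1 and 0 against 0 and 2 in WT and 1 and 2 in SETD2KO-1R. They also overlapped at HCP5 and HCG26, with 1, 3, 2 and 1 against 1 in each SETD2-expressing library. By the narrower measure of 3 or more members no more than 50 kb apart, there were 10 clusters with 47 members (12.5%). This share was 0.0% when only the upper 50% of each list by score was used and 6.44% with equal peak numbers per library. It was 24.4% with at least 3 SETD2KO and at most 1 SETD2-expressing library, and 7.20% and 20.3% with gaps of 10 and 200 kb. The upper 50% and equal-number settings gave 131 and 202 regions, and the part of region number in the share was not tested. Of the 8 clusters with the most members, 7 lay within the runs of 5 or more members, often as a part of the run. They held 8 of the 14 members of the first chromosome 2 run, all 8 of the chromosome 22 run, 7 of 10 on chromosome 6, 4 of 5 on the X chromosome and 4 of 5 in LOC101927960. The chromosome 3 run contributed 2 of them, with 4 members upstream of CNTN6 and 3 within it, and the eighth was the group of 3 members at HCP5 and HCG26 on chromosome 6.

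**Figure D2:**
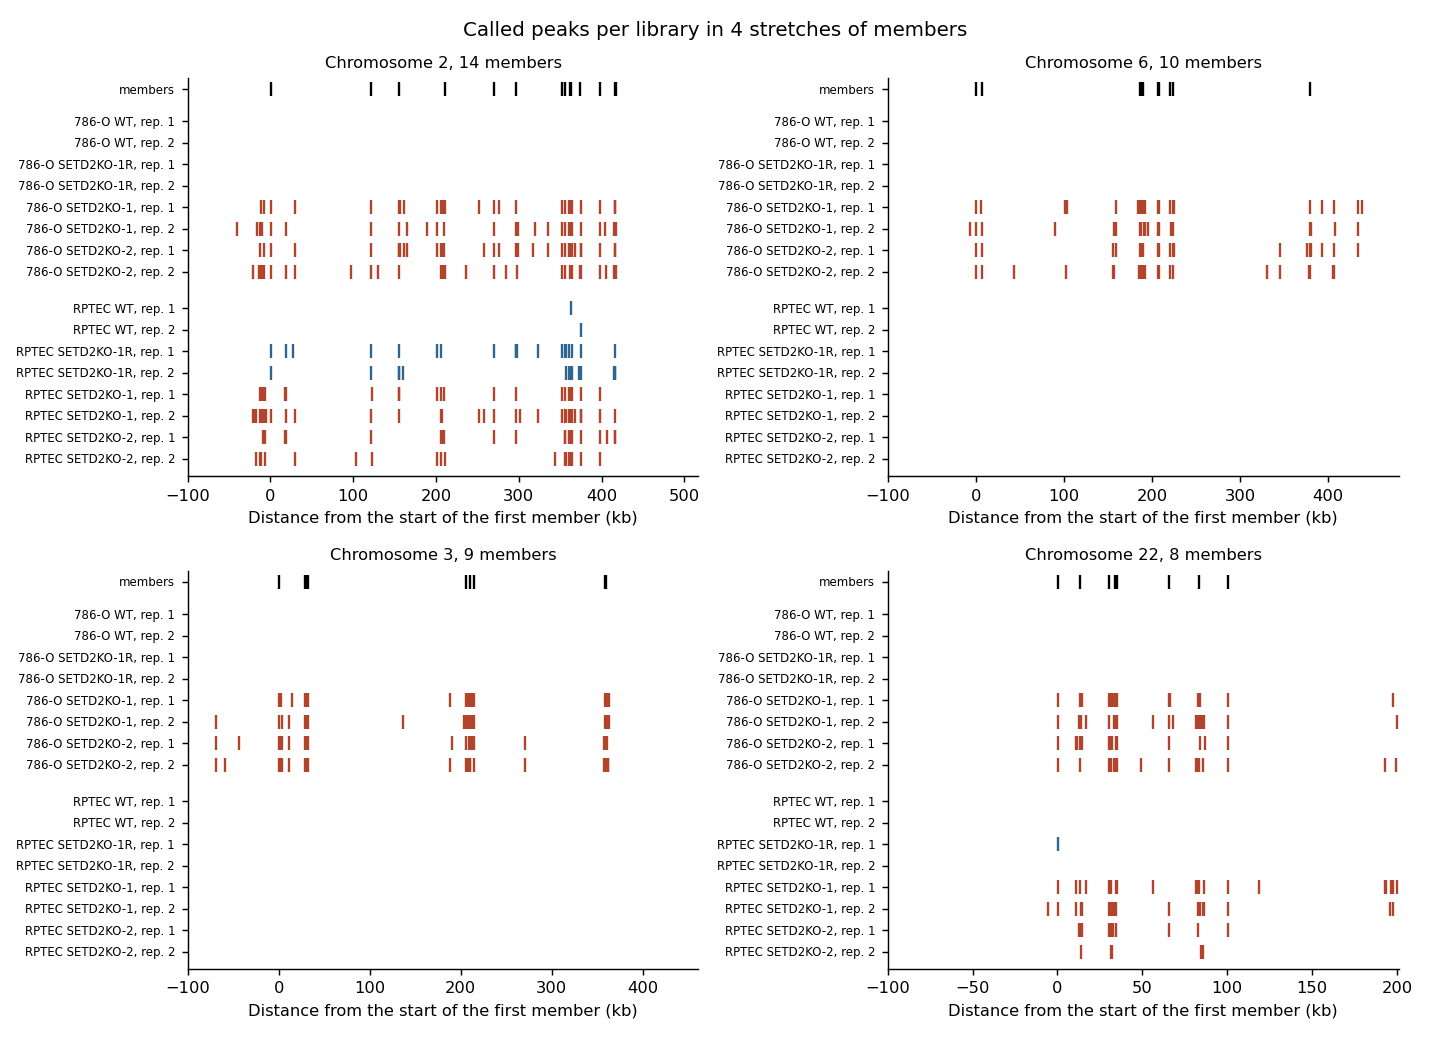
Midpoints of called peaks (ticks) in each of the 16 libraries along the 4 stretches with the most members, plotted by distance in kb from the start of the first member; SETD2KO libraries are red, SETD2-expressing libraries blue, and black ticks mark the members. On chromosome 2 the RPTEC SETD2KO and SETD2KO-1R libraries shared the peaks, on chromosome 22 mainly the RPTEC SETD2KO libraries did, and on chromosomes 6 and 3 no RPTEC library had one.

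Chromosomes were unevenly represented. Chromosomes 2 and 9 held 44 members each (11.7%, 8.86 to 15.4), chromosome 3 held 37 (9.87%, 7.24 to 13.3) chromosome 8 held 27 (7.20%, 5 to 10.3) and the X chromosome held 19 (5.07%, 3.27 to 7.78). Chromosomes 2, 9, 3, 8 and X held 6.77%, 5.49%, 5.25%, 3.98% and 3.03% of all 786-O regions. The stretches above held 14 and 5 of the chromosome 2 members, 9 and 3 on chromosome 3, and 5 and 3 on X. They held 3 members each on chromosomes 8 and 9. Members in a stretch are not independent, while the intervals take them as such. Chromosomes 1, 5, 10, 11, 17, 18 and 19 had intervals wholly below their share of all regions. Chromosome 18 had 0 of the 375 members and 1122 regions, which allows a share of up to 1.01%. For chromosomes 9 and 8 the whole lists moved in the same direction. Chromosome 9 had 5.94% to 6.23% of all peaks in the SETD2KO libraries and 4.49% to 5.05% in the SETD2-expressing ones, and chromosome 8 had 4.23% to 4.47% and 3.46% to 3.75%, with no overlap in either case. For chromosomes 2 and 3 these ranges overlapped. The part of these list-wide shifts, or of copy number, in the members' distribution was not tested.

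**Figure D3:**
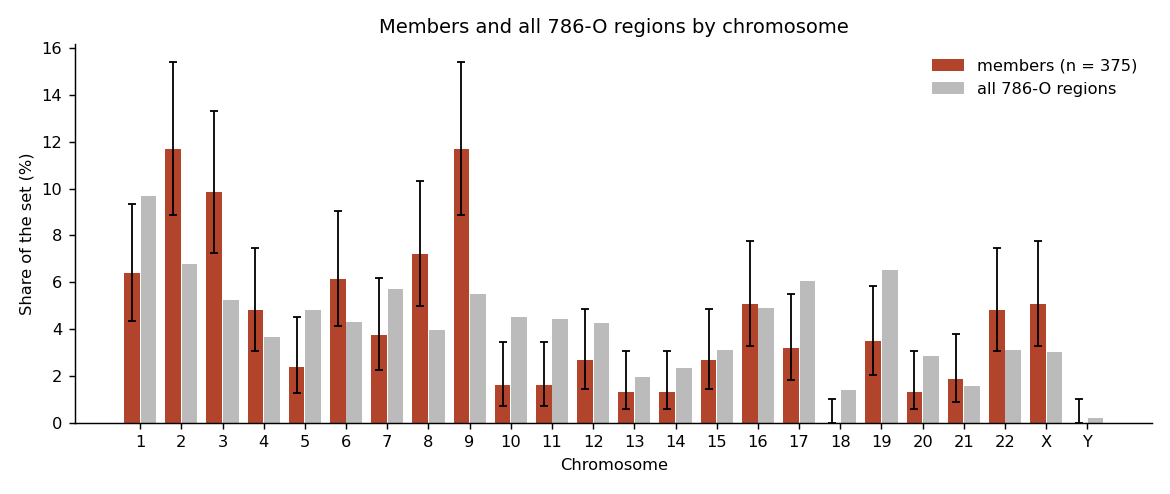
Share of the 375 members (red, whiskers Wilson 95% intervals) and of all 786-O regions (grey) on each chromosome, in %. The members' share was above that of all regions on chromosomes 2, 3, 8, 9 and X by more than the interval. It was below by more than the interval on chromosomes 1, 5, 10, 11, 17, 18 and 19, and 0 on 18 and Y. The intervals take members as independent, which those in runs are not.

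The 185 members in protein-coding genes touched 184 genes, 16 of which are nested PCDHG protocadherin genes that share 1 member. For 109 of the 184 genes (59.2%) all 4 SETD2-expressing libraries had a peak elsewhere in the gene, and for 33 (17.9%) none had. Over the 7642 protein-coding genes with a peak in all 4 SETD2KO libraries, these shares were 83.7% and 0.694%. A gene without any SETD2-expressing peak passes the rule more easily, so this contrast is partly built in. GCA, among the 33, had 0 peaks in replicate 2 of both SETD2KO clones, so it is not among the 7642. More than 1 member was found in 13 genes. Each member is called by every 786-O SETD2KO library and by no SETD2-expressing one. The choice of these genes thus favours higher 786-O SETD2KO counts, and the counts are given as a description. CNTN6, with 5 members, held 10 and 12 peaks in SETD2KO-1, 13 and 15 in SETD2KO-2 and 0 in each of the 4 SETD2-expressing libraries and the 8 RPTEC libraries. ASTN2, a neuronal membrane protein gene on chromosome 9 with 4 members, had 30, 31, 41 and 22 peaks in the SETD2KO libraries, 10 and 12 in WT, and 8 and 4 in SETD2KO-1R. Its SETD2KO counts were thus above all 4 SETD2-expressing counts, but the gene was not free of m6A peaks in the parent. Its neighbour PAPPA, a protease that cleaves IGF-binding proteins, had 3 members, with 12, 11, 12 and 6 SETD2KO peaks against 3, 3, 3 and 0. PDLIM5, a PDZ and LIM domain gene, also had 3 members, with 6, 6, 6 and 9 SETD2KO peaks against 4 and 3 in WT and 1 and 0 in SETD2KO-1R. In RPTEC, PDLIM5 had 8, 9, 8 and 4 SETD2KO peaks and 2, 7, 6 and 9 SETD2-expressing peaks, which overlapped.

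The genes with 2 members each were APBA1, DIAPH2, FAM227A, MAMDC2, MAP3K13, OR10H1, PCSK5, RASAL2 and SLC4A4. SLC4A4 encodes the sodium bicarbonate cotransporter of the proximal tubule, and had 18, 17, 20 and 18 peaks in the SETD2KO libraries. It had 13 and 10 in WT and 7 and 0 in SETD2KO-1R, so that the rescue libraries fell below the parent. PCSK5, a proprotein convertase, had 17, 17, 19 and 17 SETD2KO peaks, 12 and 9 in WT and 4 and 3 in SETD2KO-1R. In RPTEC it had 0 peaks in all 4 SETD2KO libraries and 4, 2, 1 and 7 in the SETD2-expressing libraries, the opposite order. FAM227A had 2 peaks in each SETD2KO library and 0 in each SETD2-expressing library of 786-O.

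**Figure D4:**
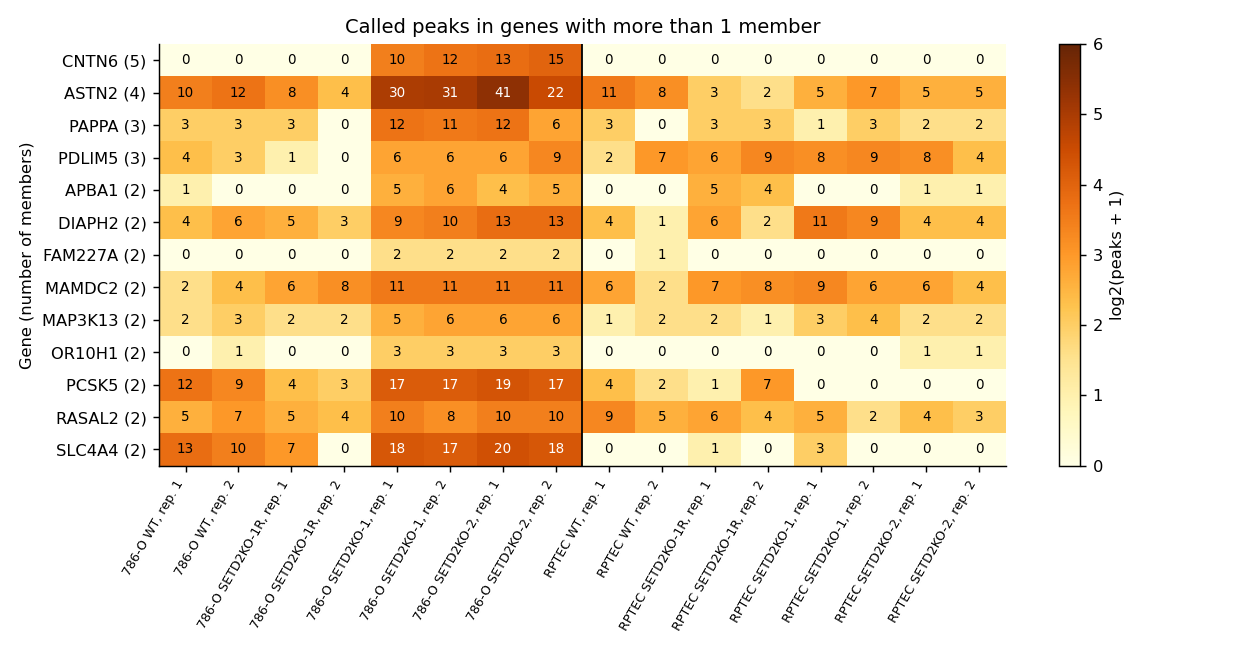
Number of called peaks in each of the 16 libraries (columns) for the 13 protein-coding genes with more than 1 member (rows, number of members in brackets); cell colour is log2(peaks + 1). CNTN6 and FAM227A had 0 peaks in all 4 786-O SETD2-expressing libraries; the genes were chosen by their 786-O calls.

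Among the 33 genes in which no 786-O SETD2-expressing library had a peak were the lysosomal protease CTSL, the transcription factor KLF4, the receptor TLR4, the chemokine CX3CL1 and the matricellular CCN3. The CX3CL1 region lay on chromosome 16 at 57382296 to 57383259, and CX3CL1 had no RPTEC peak. KLF4 had 8 peaks in 786-O SETD2KO, summed over its libraries; its RPTEC peaks were 1 and 1 in WT and 0 in the other 6 libraries. TLR4 had 8 peaks in 786-O SETD2KO, and in RPTEC had peaks in all 8 libraries, 3 and 2 in WT, 5, 4, 3 and 3 in SETD2KO and 3 and 3 in SETD2KO-1R. IKZF2, an Ikaros family transcription factor, and SELPLG, the P-selectin ligand, likewise had a peak in all 8 RPTEC libraries. These genes were picked from the 33 after their values were seen.

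Lists of genes in pathways related to the study held 1 member gene in all. Of the 12430 protein-coding genes with a 786-O region, 184 (1.48%) held a member. Of 46 oxidative phosphorylation genes in the gene table, 34 had a 786-O region and 0 a member. The same count was 0 of 26 for fatty acid oxidation, 0 of 16 for the TCA cycle, 0 of 23 for cholesterol synthesis, 0 of 22 for m6A writers, readers and erasers, 0 of 19 for H3K36 and H3K27 methylation enzymes, 0 of 23 for epithelial mesenchymal transition, 0 of 20 for hypoxia and HIF targets, and 0 of 11 for the cell type markers. The lysosome list had 1 of 25, CTSL. Beside a share of 1.48%, lists of this size would hold few members or none, and no list is set apart by its count. The counts cover the listed genes only: OGDHL and KDM3A, for instance, held a member and were on no list. SLC29A3, SERPINH1, HM13, CHPF, LY96, DNMT3B, TNFRSF12A, SETD2 and METTL3 held no member. In 786-O, LY96, the TLR4 co-receptor, had 3 and 4 peaks in SETD2KO-1, 3 and 3 in SETD2KO-2, 0 and 0 in WT, and 1 and 0 in SETD2KO-1R. SLC29A3, a lysosomal nucleoside transporter, had 7, 5, 8 and 4 SETD2KO peaks, 2 and 2 in WT, and 6 and 2 in SETD2KO-1R, so that its first rescue library lay within the SETD2KO range. SERPINH1, a collagen chaperone, had 4, 5, 5 and 3 SETD2KO peaks, 2 and 2 in WT, and 4 and 3 in SETD2KO-1R, which again overlapped the SETD2KO range. For the others WT and SETD2KO overlapped. HM13 had 7, 6, 7 and 8 SETD2KO peaks, 8 and 6 in WT, and 5 and 2 in SETD2KO-1R, so that both rescue libraries lay below all 4 SETD2KO and both WT values. CHPF had 4, 5, 4 and 3 SETD2KO peaks, 3 and 4 in WT, and 3 and 1 in SETD2KO-1R. DNMT3B, a DNA methyltransferase, had 3, 2, 3 and 0 SETD2KO peaks, 0 and 3 in WT, and 2 and 0 in SETD2KO-1R. TNFRSF12A had 2 in each of these libraries but 1 in SETD2KO-1R replicate 2, and METTL3 had 1 in SETD2KO-1 replicate 1 and WT replicate 1 and 0 in the others.

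At the members, RPTEC peaks, which the rule did not use, were called more often in the SETD2KO than in the SETD2-expressing libraries. The share of members called was 29.9% and 32.5% in RPTEC SETD2KO-1, 30.4% and 21.3% in SETD2KO-2, 16.8% and 13.3% in WT, and 19.5% and 19.5% in SETD2KO-1R. All 4 SETD2KO values were above all 4 SETD2-expressing values, with means of 28.5% ± 4.94 (SD, n = 4) and 17.3% ± 2.91 (SD, n = 4), a difference of 11.3 percentage points. The difference was 6.22 points without 786-O SETD2KO-2 replicate 2 in the rule, 4.97 and 3.58 with SETD2KO-1 or SETD2KO-2 alone, and 2.46 with at least 3 SETD2KO and at most 1 SETD2-expressing library. Over all 786-O regions the order was the other way, with means of 24.8% ± 5.09 and 27.4% ± 3.69 and a difference of -2.55 points. Relative to all regions, the members were called 1.07 to 1.24 times as often in the SETD2KO libraries and 0.60 to 0.669 times as often in the SETD2-expressing libraries. The regions with the opposite 786-O pattern differed by -11.4 points, the other regions called in exactly 4 libraries by -3.83 and the regions kept after rescue by 7.27. In 786-O and RPTEC the lines were made separately, but libraries of 1 clone share their clone, so the 4 values of a group are not 4 independent knockouts.

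**Figure D5:**
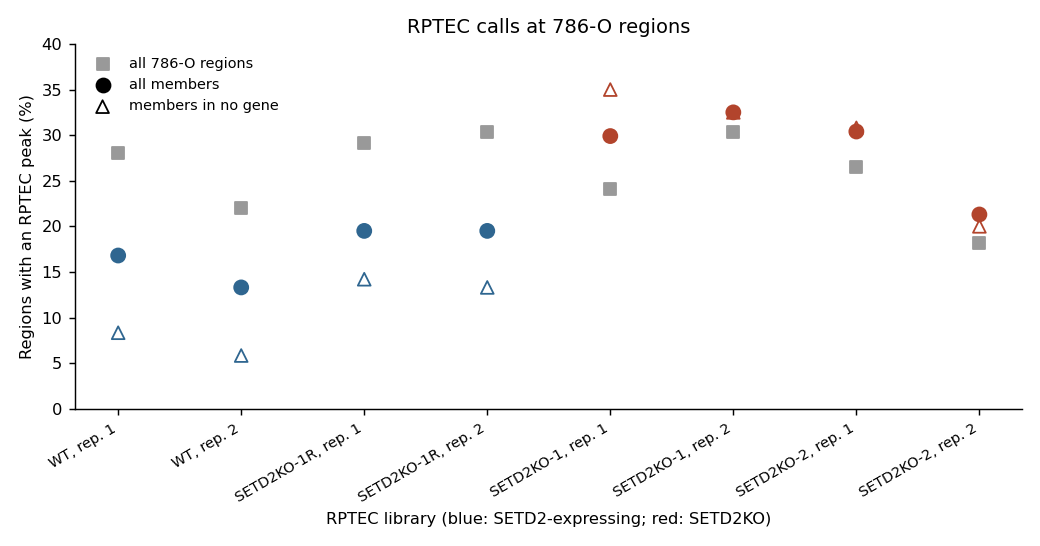
Share of regions (%, vertical axis) with a peak in each RPTEC library (horizontal axis; SETD2-expressing libraries blue, SETD2KO libraries red) for all members (filled circles), the 120 members in no gene (open triangles) and all 786-O regions (grey squares). Members lay below all regions in the 4 SETD2-expressing libraries and above them in the 4 SETD2KO libraries.

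The RPTEC difference was larger for members outside protein-coding genes, at 19.2 points for those in no gene and 15.7 for those only in another gene, than for those in protein-coding genes, at 4.46. Over all 786-O regions of these classes it was 2.71, 0.52 and -3.38 points. The differences between classes were not tested. Members in no gene were called at 35.0%, 32.5%, 30.8% and 20.0% in the SETD2KO libraries, 8.33% and 5.83% in WT, and 14.2% and 13.3% in SETD2KO-1R. All 786-O regions in no gene were called at 15.1%, 14.9%, 13.8% and 11.7% in SETD2KO and 10.6%, 9.62%, 11.7% and 12.8% in the WT and SETD2KO-1R libraries. Members in protein-coding genes were called at 28.1%, 34.1%, 29.2% and 21.6% in SETD2KO, 23.2% and 18.9% in WT, and 25.4% and 27.6% in SETD2KO-1R, and these ranges overlapped. All 786-O regions in protein-coding genes were called at 25.4%, 32.8%, 28.5% and 19.2% in SETD2KO and 30.6%, 23.9%, 31.7% and 33.2% in the WT and SETD2KO-1R libraries. The members thus lay above this share in each SETD2KO library and below it in each SETD2-expressing one. Of the 120 members in no gene, 47 (39.2%) had more SETD2KO than SETD2-expressing calls in RPTEC and 7 (5.83%) had fewer, beside 17.4% and 11.4% of all regions in no gene. Of the 185 in protein-coding genes, 53 (28.6%) had more and 40 (21.6%) fewer, beside 16.5% and 25.7% of all regions in such genes.

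Region by region, 219 members (58.4%) had a peak in at least 1 RPTEC library, beside 57.6% of all 786-O regions, and 156 had none. More SETD2KO than SETD2-expressing calls were found at 125 members (33.3%), beside 16.7% of all regions. Fewer were found at 51 members (13.6%), beside 23.8%. The full pattern, all 4 RPTEC SETD2KO and no RPTEC SETD2-expressing library, was met by 9 members (2.40%), beside 0.156% of all regions, and its mirror image by 0 members, beside 0.165%. Another 5 members (1.33%, beside 0.169%) were called in all 4 SETD2KO, no WT and both SETD2KO-1R libraries, and 4 (1.07%, beside 0.148%) with 1 SETD2KO-1R library. With 4 libraries against 4, the two-sided Fisher's exact test of a single region cannot give a p below 0.0286. The 9 members reached that value, as did 253 of the 78921 regions in all, and after Benjamini-Hochberg adjustment 0 regions passed, the smallest adjusted p being 1.00.

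The 9 members with the same pattern in both cell lines were mostly noncoding. Protein-coding genes held 2 of them, at CXXC4, an inhibitor of Wnt signalling (chromosome 4, 104490807 to 104491467, mean percentile 48.0 in 786-O), and at PIN4, a parvulin-type prolyl isomerase (chromosome X, 72262801 to 72263741, mean percentile 53.2). The CXXC4 region also covered the start of the antisense gene CXXC4-AS1, and without strand the 2 cannot be told apart. Noncoding genes held 2, LOC105373220 on chromosome 1 (238352904 to 238354710) and LOC101927588 on chromosome 8 (124242040 to 124243828). The other 5 lay in no gene: 1 in each of the chromosome 2 and chromosome 22 runs described above, and 1 each on chromosomes 2 (181091103 to 181092433), 8 (89239545 to 89239947) and 15 (74053454 to 74053937, which is 5626 bp from PML). The chromosome 8 region was also the strongest of the 9, at percentiles of 90.3 and 93.2 in SETD2KO-1 and 87.6 and 92.2 in SETD2KO-2 of 786-O.

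At the other end, 12 members (3.20%) were called in all 8 RPTEC libraries, beside 6.91% of all regions. The first 5 in genome order were at IKZF2, HCP5, TINAG and LURAP1L, and on chromosome 9 at 40637574 to 40638291, in no gene. These regions had m6A peaks in RPTEC whatever its SETD2 status, while in 786-O only the SETD2KO libraries called them. A 786-O SETD2-expressing peak lay 260 bp from the chromosome 9 region and 1126 bp from the TINAG region. For those at IKZF2, HCP5 and LURAP1L the nearest such peak was 276426, 42888 and 359306 bp away.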

How the data were processed

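MeRIP-seq IP libraries of 4 lines (WT, SETD2KO-1, SETD2KO-2, SETD2KO-1R) in 786-O and RPTEC were analysed, 2 per line and 16 in all. Samples were grouped by the titles and genotypes in the labels. Per the labels and the study's methods, the authors prepared stranded total RNA libraries, aligned them with STAR to hg38, applied scale factors from an E. coli spike-in and ran MACS2 on each IP library against its Input. The deposited lists give for each peak its coordinates, a whole-number score and a summit position; the scale of the deposited score is not given in the sources used here, so the score served only as a percentile within a list. The other peak columns hold 0 throughout and were not used. The lists were analysed with pandas 2.3.3 and NumPy 2.4.6 in Python 3.11.15, tests were run in SciPy 1.17.1, and figures were drawn with Matplotlib 3.10.9.

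Peaks of the 8 786-O libraries that shared at least 1 bp were merged into regions, and a library called a region if a peak of it overlapped by at least 1 bp. Merging and calls were checked against bedtools 2.31.1 and tested on simulated data. Locations rest on gene bodies of the RefSeq table of GRCh38.p14, which has no exons, so exonic, intronic and untranslated parts were not told apart. Gene strands and promoter sequences came from the RefSeq promoter table. RPTEC calls at 786-O regions were compared by two-sided Fisher's exact tests with Benjamini-Hochberg adjustment over all regions. Shares have Wilson 95% intervals, which cover counting error only. Depth per library is unknown because the lists hold no counts, which limits what an absent call shows. The regions described, the gene lists and the tests were chosen with earlier results of these data known. Named items were, by rule, the 10 members in protein-coding genes and the 5 outside them with the highest mean percentile, the 10 genes and 8 clusters with the most members (ties by symbol for genes, where 13 are given, and by genome order for clusters), list genes with a member, members with the same pattern in RPTEC, the 5 called in most RPTEC libraries, and the genes the study discussed. Others were chosen after their values were seen.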

Additional observations from a re-analysis of the deposited data

Results flagged for a closer look

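Beyond chromosomes 1 to 22, X and Y, which the rule was limited to, the 786-O lists gave 226 merged regions on other contigs. Of these, 1 was called in all 4 SETD2KO libraries and in no SETD2-expressing library, and 0 had the opposite pattern. It is noted because it lies outside the data described above.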

How the results depend on the processing

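The direction of the RPTEC difference was the same under every alternative run, and its size was not. Keeping only the upper 50% of every list, ranked on score, gave 131 regions, 48 of them at one of the 375 members, with 58.8% in a protein-coding gene, 22.1% in no gene, 0.0% in clusters and 69.5% with an RPTEC call. With 25629 peaks taken from each 786-O library there were 202 regions, 152 of them at a member, with 6.44% in clusters and 69.3% with an RPTEC call. Both settings also drop weak SETD2-expressing peaks, and thereby admit regions that the rule kept out. With at least 3 SETD2KO and at most 1 SETD2-expressing library there were 3888 regions, with 75.4% in a protein-coding gene, 14.1% in no gene, 24.4% in clusters, 66.8% with an RPTEC call and an RPTEC difference of 2.46 points. SETD2KO-1 alone gave 1598 regions, with 68.0%, 19.1% and 52.8% in a protein-coding gene, in no gene and with an RPTEC call, and 4.97 points; SETD2KO-2 alone gave 1383, with 64.8% and 23.1% in a protein-coding gene and in no gene, and 3.58 points. The percentage in clusters was 7.20 with a gap of 10 kb and 20.3 with 200 kb. Leaving out each 786-O library in turn gave 450 to 880 regions (880 without SETD2KO-2 replicate 2, 450 without SETD2KO-1R replicate 2), 51.5% to 67.4% in a protein-coding gene, 19.9% to 31.0% in no gene, 9.43% to 14% in clusters, 55% to 65.2% with an RPTEC call and a difference of 6.22 to 9.85 points. Each gives more regions by construction, since fewer lists must agree. Without SETD2KO-1 replicate 1 or 2, SETD2KO-2 replicate 1, WT replicate 2 or SETD2KO-1R replicate 1 the number was 598, 589, 584, 566 and 568, each over 1.5 times the main count. Leaving out each RPTEC library gave 9.93 to 13.7 points. Merging within 100 bp gave 375 regions, 373 of them at a member, and requiring overlap of 50% gave 375, all at a member. Leaving out members in clusters gave 10.2 points, and leaving out the members at 40 to 66 Mb of chromosome 9 gave 11.3; both were chosen after seeing the data.

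With replicate number as a replicate block the RPTEC difference was 11.3 points, as without it. The stratified exact test cannot give a p below 0.0556, so 0 regions had an unadjusted p under 0.05 in place of 253, which says nothing about stability. Deviations of same-numbered libraries of different lines correlated at -0.0397 to 0.118 in 786-O and -0.103 to 0.105 in RPTEC. With 2 libraries per line, these values cannot show whether same-numbered libraries were handled together.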

Other observations

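Chromosome 9 between 40 and 66 Mb, around its centromere and long known for duplicated blocks, held 9 of the 44 members of that chromosome, from 40637574 to 65728356 bp, with 1 in a protein-coding gene. In RPTEC, 3 of the 9 were called in all 8 libraries and 2 in none, where 6.91% and 42.4% of all 786-O regions were. Peaks in near-identical copies can share reads, so which copy carried them is uncertain.

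At the start of NOTCH1, a receptor of cell-cell signalling, a member of 852 bp (chromosome 9, 136545846 to 136546697, mean percentile 53.5) also covered the hairpin of MIR4674, the only one of 1562 hairpins in the table to overlap a member. Its summits were spread more widely than those at NUFIP2 or CTSL, at -520 and -301 in SETD2KO-1 and -103 and 9 in SETD2KO-2 relative to the NOTCH1 start. No RPTEC library had a peak there. A member between IFIH1, a sensor of double-stranded RNA, and GCA lay over both starts, with summits up to 652 bases upstream of one GCA start, and was called in 2 RPTEC SETD2KO and 0 RPTEC SETD2-expressing libraries.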
